A study of Mus musculus with 6 samples.

Results

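Axotomy and regeneration genes are the transcripts that sensory neurons are known to induce after their axon is cut, and 10 of them were looked up by symbol in RNA profiles of the mouse trigeminal ganglion: Atf3, Sox11, Gap43, Ecel1, Stmn4, Gadd45a, Flrt3, Klf6, Smad1 and Tubb6. Of these, 9 had a row among the 13673 genes of the expression table. Ecel1, which encodes a damage-induced neuronal endopeptidase, had none, so its expression was not analysed here. The trigeminal ganglion holds the cell bodies of the sensory neurons of the face and jaw, with the satellite glia and Schwann cells around them. Wild-type mice had been injected with CFA (complete Freund's adjuvant, an oil emulsion that causes inflammation where it is injected) or, as controls, with saline. Ganglia of both groups were taken on day 3, with 3 libraries each. The labels give the tissue as TG with neurons and glia. The sources used here do not give the site of injection, the strain, age and sex, or whether a library came from 1 animal or a pool. The p-values therefore measure the spread between these libraries.

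When a peripheral axon is severed, the neuron switches on a set of transcription factors, among them Atf3, Sox11, Klf6 and Smad1, and then growth and cytoskeleton genes such as Gap43, the stathmins and tubulins. ATF3 in the nucleus is a widely used marker of an axotomised sensory neuron. Inflammation of the tissue that a neuron innervates need not cut its axon, and the comparison asked whether ganglia of CFA mice show this injury pattern.

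None of the 9 measured genes passed the threshold between CFA and saline (limma on log2(FPKM + 1), adjusted p between 0.193 and 0.808 over 12238 genes), where 0.0572% of all genes tested passed. Atf3 averaged 4.65 ± 0.495 FPKM in CFA ganglia and 5.15 ± 0.235 FPKM in saline ganglia (SD, n = 3 each). By direction alone 4 genes were higher and 5 lower in CFA ganglia, and the groups were apart in 5, with 3 higher and 2 lower. Of all genes tested, 7.89% were apart with CFA higher and 6.66% with CFA lower. For all 9, the 95% interval of the change lay between a halving and a doubling of the saline mean, also without any 1 library; without both libraries numbered 3 it did so for 8, Gadd45a being the exception. Stmn4 stood furthest from 0, at 50.4 ± 5.93 FPKM in CFA ganglia and 33.2 ± 2.13 FPKM in saline ganglia.

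Levels are the authors' deposited FPKM, which divides fragments by transcript length and by the mapped total of the library. A log2 fold change is the CFA mean minus the saline mean of log2(FPKM + 1), with its standard error (SE), and is smaller than the true change where FPKM is low. Library totals ran from 261183 to 275152 FPKM. These are not read depths, and the depth is unknown. All 14 pan-neuronal markers used to check the tissue were tested, and their summed FPKM ran from 3739 to 4394 in CFA libraries and from 3175 to 4122 in saline libraries. In a whole ganglion, fewer cells of a type and less RNA per cell cannot be told apart, and a change in a few neurons is averaged with all other cells. Libraries differed widely in pituitary hormone genes and neutrophil markers, and whether these came from neighbouring tissue, blood or another source was not tested. Summed pituitary hormone genes ran from 233 to 2849 FPKM in CFA libraries and from 189 to 4842 in saline libraries, and summed neutrophil markers from 62.1 to 351 and from 63.5 to 616, with saline replicate 3 the highest in both lists.

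**Figure D1:**
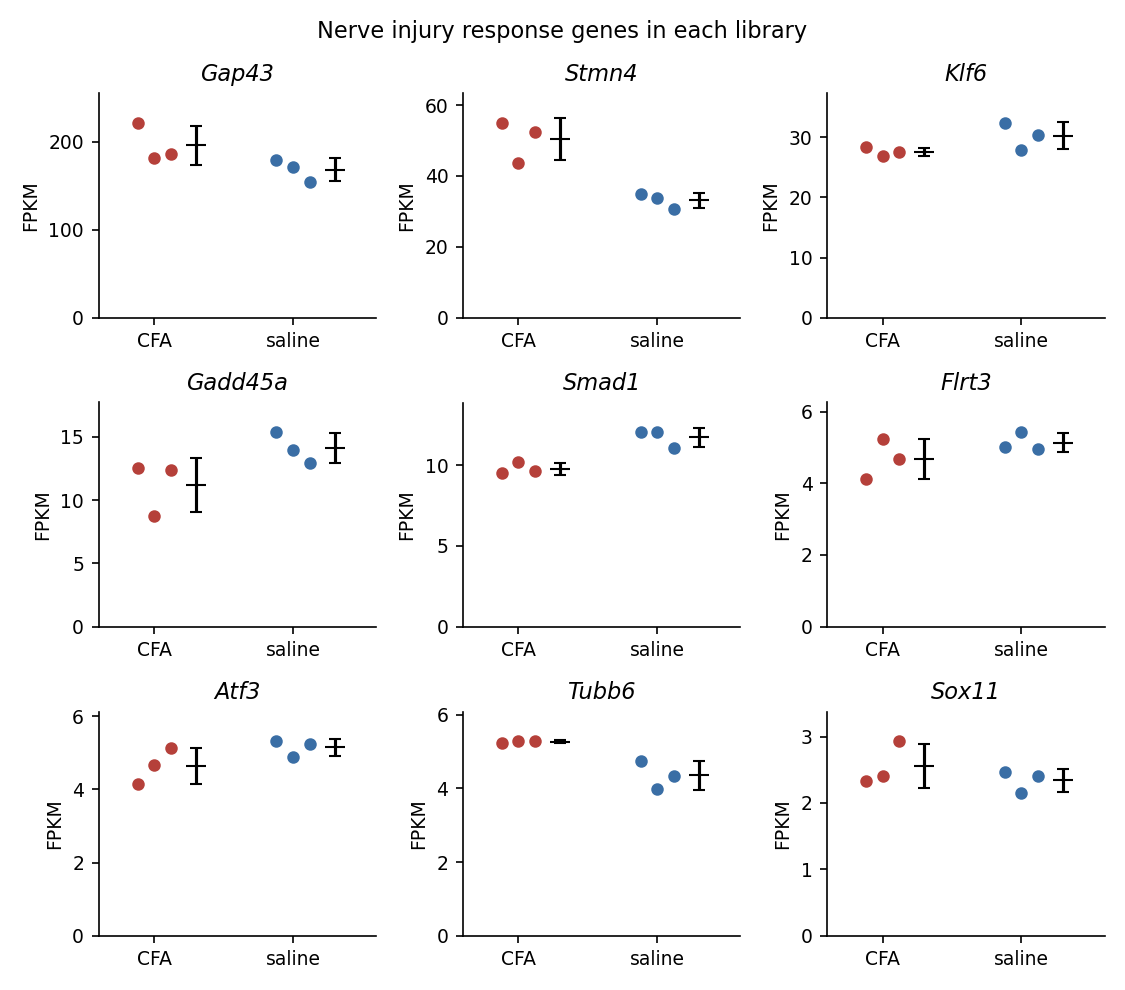
FPKM (vertical axis of each panel, starting at 0) of the 9 measured genes in the 3 CFA libraries (red, left) and the 3 saline libraries (blue, right), with mean and SD in black beside the points. The groups are apart in Gap43, Stmn4, Gadd45a, Smad1 and Tubb6 and overlap in Klf6, Flrt3, Atf3 and Sox11.

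The transcription factors come first. Atf3, a stress-induced bZIP factor on chromosome 1 at 191170296 to 191218039 (GRCm38, minus strand), was listed at 4.15, 4.66 and 5.14 FPKM in CFA libraries and at 5.33, 4.88 and 5.23 FPKM in saline libraries. The groups overlapped through CFA replicate 3, which lay above saline replicate 2. The log2 fold change was −0.13 (SE 0.0964), with a 95% interval from −0.36 to 0.11 and a limma adjusted p of 0.721. Without CFA replicate 1 the log2 fold change of Atf3 was −0.06. A doubling of its saline mean would be 0.88 on this scale, outside that interval.

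Sox11, an HMG-box factor that promotes axon growth, had the lowest level of the 9 genes, at 2.33, 2.41 and 2.94 FPKM in CFA libraries and 2.47, 2.14 and 2.41 FPKM in saline libraries. Its groups overlapped, and its log2 fold change was 0.09, with an interval from −0.16 to 0.34 (limma adjusted p = 0.808). Without CFA replicate 3, CFA replicate 1 or saline replicate 2 that change of Sox11 was 0.01, 0.13 or 0.04. Klf6, a zinc finger factor, stood at 28.3, 26.9 and 27.5 FPKM in CFA libraries and at 32.4, 27.9 and 30.4 FPKM in saline libraries. CFA replicate 1 lay above saline replicate 2, and the log2 fold change of Klf6 was −0.13 with an interval from −0.31 to 0.06 (−0.08 without saline replicate 1).

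Smad1, which carries bone morphogenetic protein signals to the nucleus, was the one factor whose groups were apart. It was listed at 9.51, 10.2 and 9.65 FPKM in CFA libraries and at 12.1, 12.1 and 11.1 FPKM in saline libraries. Every CFA library was below every saline library, with a log2 fold change of −0.24 (SE 0.0753, interval −0.42 to −0.06). It did not pass over all genes (limma adjusted p = 0.499), and its direction is opposite to the induction known after axotomy.

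The growth and cytoskeleton genes among the members, Stmn4, Gap43 and Tubb6, were higher in CFA ganglia by direction, as was the factor Sox11. Stmn4 encodes a stathmin that binds tubulin dimers and lies on chromosome 14 at 66344296 to 66361680 (plus strand). It stood at 55.0, 43.7 and 52.4 FPKM in CFA libraries and at 34.9, 33.8 and 30.8 FPKM in saline libraries. The lowest CFA library was above the highest saline library, and the ratio of the means was 1.52. The log2 fold change was 0.58 (SE 0.105, interval 0.33 to 0.83), with a limma adjusted p of 0.193, so Stmn4 did not pass over all genes. By unadjusted p it ranked 67 of the 12238 genes.

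Gap43, a phosphoprotein of growing axons and their growth cones, was by far the most abundant of the 9, at 222, 181 and 186 FPKM in CFA libraries and 179, 171 and 154 FPKM in saline libraries. The groups were apart by less than 2 FPKM, between CFA replicate 2 (181.02) and saline replicate 1 (179.44). Its log2 fold change was 0.22, with an interval from −0.04 to 0.48 (limma adjusted p = 0.628), and it was 0.13 without CFA replicate 1. Tubb6, a beta-tubulin isotype, was listed at 5.23, 5.28 and 5.30 FPKM in CFA libraries and at 4.75, 3.98 and 4.34 FPKM in saline libraries. The CFA libraries of Tubb6 differed from each other by less than those of any other measured member (0.692% of their mean as SD, against 8.87% in saline libraries). Its groups were apart, with a log2 fold change of 0.23 (interval 0.02 to 0.44, limma adjusted p = 0.580).

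The remaining genes are a stress gene and a cell-surface gene. Gadd45a, a growth-arrest protein induced by DNA damage and other stress, was at 12.5, 8.71 and 12.4 FPKM in CFA libraries and at 15.4, 13.97 and 12.96 FPKM in saline libraries. CFA replicate 2 was the lowest and the groups were apart, with a log2 fold change of −0.32 (interval −0.67 to 0.03, limma adjusted p = 0.621). Without CFA replicate 2 the log2 fold change of Gadd45a was −0.17. Exons of Gadd45a overlap those of the non-coding gene E230016M11Rik on the other strand, and the sources used here do not say whether quantification used strand. No other measured member shares exons with a neighbour in GENCODE M21. Flrt3, a leucine-rich repeat membrane protein of neurites, was at 4.13, 5.25 and 4.68 FPKM in CFA libraries and at 5.01, 5.44 and 4.96 FPKM in saline libraries. Its groups overlapped, with a log2 fold change of −0.11 and an interval from −0.36 to 0.13. Without CFA replicate 1 it was −0.04, and without CFA replicate 2 it was −0.18.

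**Figure D2:**
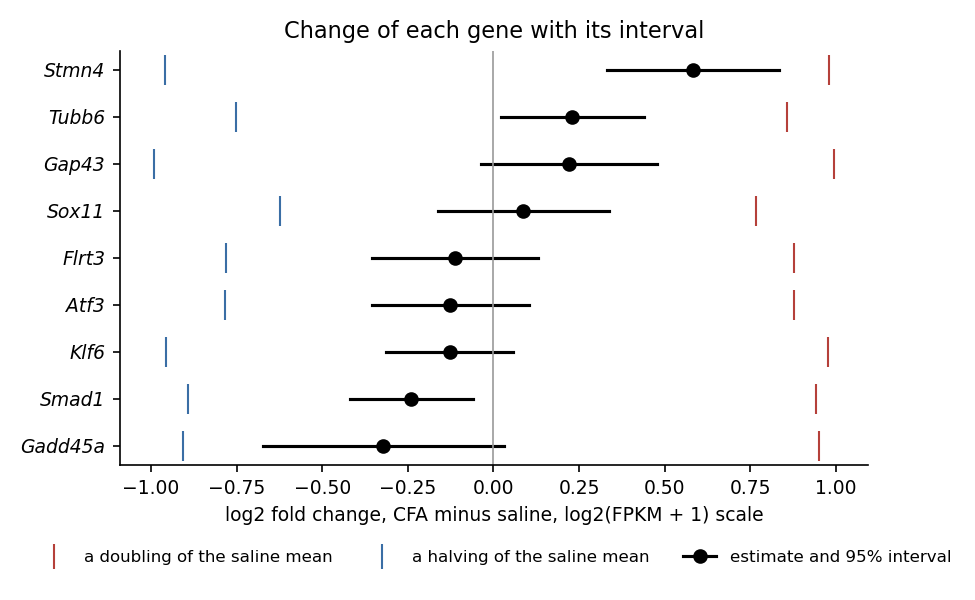
Log2 fold change of each gene (points; horizontal axis, CFA minus saline, from log2(FPKM + 1)) with its 95% interval (lines), beside the value that a doubling (red tick) or a halving (blue tick) of its saline mean would give. The intervals of Stmn4, Tubb6 and Smad1 leave out 0, and no interval reaches a tick.

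The counts among the 9 stand here beside those over the whole table. At an unadjusted p below 0.05 there were 3 of 9 (33.3%), Stmn4 and Tubb6 higher and Smad1 lower, where 8.32% of all genes tested were past it (5.37% higher and 2.95% lower in CFA). Groups did not overlap with CFA higher in 3 members (33.3%, against 7.89% of all genes) and with CFA lower in 2 (22.2%, against 6.66% of all genes). The median log2 fold change of the 9 was −0.11, and that of all genes tested was 0.01. The members were picked with earlier results of these libraries known, so these shares describe the 9 genes and test nothing about them as a set.

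Ordered by mean FPKM over the 6 libraries, the genes ran Gap43 (182), Stmn4 (41.8), Klf6 (28.9), Gadd45a (12.7), Smad1 (10.8), Flrt3 (4.91), Atf3 (4.90), Tubb6 (4.81) and Sox11 (2.45). The ranges of the libraries overlapped between neighbours for Stmn4 and Klf6, for Gadd45a and Smad1, for Flrt3 and Atf3, and for Atf3 and Tubb6. They were apart between Gap43 and Stmn4, Klf6 and Gadd45a, Smad1 and Flrt3, and Tubb6 and Sox11. Several members are expressed by other cells than neurons, so a level in whole ganglion is not a level per neuron. CFA replicate 1 had the highest Gap43 and Stmn4 of all libraries and the lowest Atf3, Flrt3 and Smad1.

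Levels were also set against neuronal content. The mean log2(FPKM + 1) of the 14 pan-neuronal markers was 6.99 ± 0.114 in CFA libraries and 6.94 ± 0.111 in saline libraries (SD, n = 3 each, exact permutation p = 0.6). With that mean subtracted in each library, Stmn4 was at −1.31 ± 0.190 in CFA libraries and −1.85 ± 0.102 in saline libraries, a difference of 0.53. Smad1 was at −3.56 ± 0.130 in CFA libraries and −3.27 ± 0.0803 in saline libraries, a difference of −0.29. For both, the groups were apart and the exact two-sided permutation p was 0.1, the smallest that 3 libraries against 3 allow. Relative to that mean the groups overlapped in the other 7 genes, Gap43, Tubb6 and Gadd45a included. The mean includes Map2, named after its values were seen, the only marker whose interval was not between a halving and a doubling. Map2 was at 12.6, 11.6 and 3.06 FPKM in CFA libraries and at 1.03, 15.3 and 7.55 FPKM in saline libraries. Its part in these overlaps was not tested. Of the 14 markers, 1 was higher (Stmn3) and 1 lower (Isl1) at an unadjusted limma p below 0.05. Of all genes tested, 5.37% were past it with CFA higher and 2.95% with CFA lower. Isl1 was at 32.7 ± 2.16 FPKM in CFA libraries and 37.7 ± 0.802 FPKM in saline libraries, without overlap. The mean thus holds markers that moved in both directions.

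Markers of satellite glia and central nervous tissue were mostly higher in CFA libraries, the direction of Stmn4, Gap43 and Tubb6. Summed markers of oligodendrocytes and central nervous tissue ran from 361 to 435 FPKM in CFA libraries and from 241 to 312 FPKM in saline libraries. All 10 of these markers were higher in CFA libraries, 8 without overlap (7.89% of all genes tested), and none was at 0. Hapln2, a link protein of central nodes of Ranvier, stood at 13.9 ± 0.729 FPKM in CFA libraries and 8.97 ± 1.07 FPKM in saline libraries (SD, n = 3 each). Summed satellite glia markers ran from 1801 to 2291 FPKM in CFA libraries and from 1230 to 1567 FPKM in saline libraries, with 8 of 11 higher. None of these markers passed over all genes by limma (lowest adjusted p 0.111, in Fabp7). Stmn4 and Gap43 are also expressed in the brain, and the part of such tissue in these differences was not tested. Of the other stathmins on the lists, Stmn3 was at 826 ± 180 FPKM in CFA libraries and 579 ± 93.6 FPKM in saline libraries with overlap. Stmn3 is itself among the pan-neuronal markers that Stmn4 was set against. Stmn2, named after its values were seen, was at 214 ± 3.76 FPKM in CFA libraries and 211 ± 6.71 FPKM in saline libraries.

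**Figure D3:**
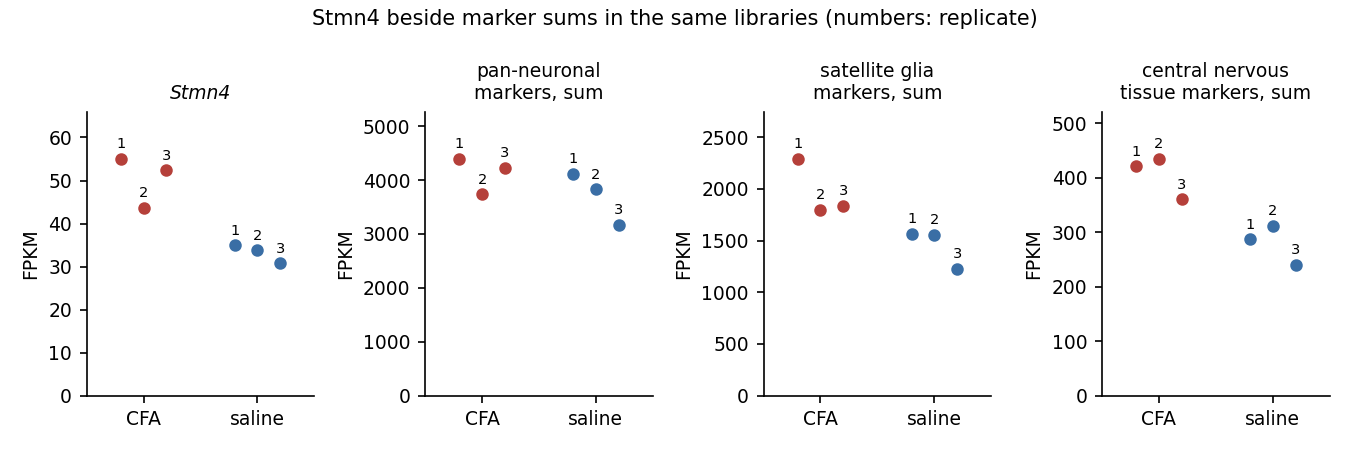
FPKM of Stmn4 and summed FPKM of the pan-neuronal, satellite glia and central nervous tissue markers (vertical axes, starting at 0) in the CFA libraries (red, left) and saline libraries (blue, right), numbered by replicate. CFA and saline libraries are apart in Stmn4, in the glial sum and in the central nervous tissue sum, and overlap in the pan-neuronal sum.

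Beyond the 10 genes, a list of 40 other genes known to be induced in axotomised sensory neurons was looked up. Of its 35 genes with a row, 32 were tested, 16 higher and 16 lower in CFA ganglia, with a median log2 fold change of 0.00. None passed over all genes by limma (lowest adjusted p 0.221). An unadjusted p below 0.05 was seen in 4 of the 32, where 8.32% of all genes tested were past it. Csf1, the macrophage growth factor that injured sensory neurons release, was at 4.75, 5.06 and 5.01 FPKM in CFA libraries and at 3.51, 3.62 and 3.37 FPKM in saline libraries. Its groups were apart, with a log2 fold change of 0.40 (SE 0.0793). The peptide gene Cck was at 1.92 ± 0.185 FPKM in CFA libraries and 1.39 ± 0.198 FPKM in saline libraries.

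In the other direction, the transcription factor gene Klf7 was at 28.2 ± 2.58 FPKM in CFA libraries and 35.4 ± 2.06 FPKM in saline libraries (SD, n = 3 each). The neuropeptide gene Vip was at 0.275, 0.250 and 0.758 FPKM in CFA libraries and at 1.75, 0.770 and 3.09 FPKM in saline libraries. All CFA libraries were below all saline libraries, the closest pair differing by little (0.758 and 0.770). VIP is known to be induced in axotomised sensory neurons, and its direction here was the opposite. Within each group the libraries had the same order in Vip as in summed pituitary hormone genes. Between groups, CFA replicate 3 (2849 FPKM of pituitary genes) was below saline replicate 2 (189 FPKM) in Vip. The part of neighbouring tissue in Vip was not tested.

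Other classical injury genes, named after their values were seen, stood as follows. Galanin (Gal), a peptide induced in cut neurons, was at 13.3 ± 1.86 FPKM in CFA libraries and 12.7 ± 2.47 FPKM in saline libraries (SD, n = 3 each). The factors Jun and Stat3 were at 41.6 ± 1.59 and 13.6 ± 0.736 FPKM in CFA libraries, against 42.6 ± 4.98 and 13.9 ± 0.454 FPKM in saline libraries. Sprr1a, a growth-associated protein of regenerating neurons, was listed at 0.549, 1.35 and 0.466 FPKM in CFA libraries and at 1.30, 0.339 and 0.383 FPKM in saline libraries, below the mean of 1 FPKM needed for the test. In 28 of the 32 tested genes the interval lay between a halving and a doubling. The exceptions were Vip, Cacna2d1, Chl1 and Npy, the last 3 named after their values were seen.

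Npy shows how wide such an interval can be. This peptide gene was at 2.53, 1.39 and 2.97 FPKM in CFA libraries and at 0.225, 15.7 and 0.587 FPKM in saline libraries. Saline replicate 2 stood far above every other library, and the interval of its log2 fold change ran from −2.26 to 2.29. Cacna2d1, a calcium channel subunit that rises in injured sensory neurons, was at 2.57, 2.14 and 11.5 FPKM in CFA libraries and at 9.74, 2.85 and 14.5 FPKM in saline libraries. The libraries high in Cacna2d1 (CFA replicate 3 and saline replicates 1 and 3) were also the highest in pituitary hormone genes (2849, 2500 and 4842 FPKM). The part of that tissue in Cacna2d1 was not tested.

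Axotomy also lowers many channel, receptor and peptide genes of sensory neurons. Of 23 such genes 22 were tested, 11 higher and 11 lower in CFA ganglia, with a median log2 fold change of 0.01, and none passed by limma (lowest adjusted p 0.510). An unadjusted p below 0.05 was seen in 2 of the 22, both lower, where 8.32% of all genes tested were past it (2.95% lower). The potassium channel gene Kcna1 was at 9.49, 10.9 and 7.76 FPKM in CFA libraries and at 14.9, 12.07 and 12.03 FPKM in saline libraries. The lysophosphatidic acid receptor gene Lpar3 was at 13.7 ± 2.28 FPKM in CFA libraries and 16.9 ± 0.721 FPKM in saline libraries (SD, n = 3 each). Calca, which encodes the pain peptide CGRP, was at 432 ± 22.7 FPKM in CFA libraries and 364 ± 41.8 FPKM in saline libraries, the opposite of its known fall after axotomy. The axonal filament gene Nefl was at 1167 ± 117 FPKM in CFA libraries and 999.9 ± 62.4 FPKM in saline libraries. In 21 of the 22 genes the interval lay between a halving and a doubling, the exception being the cold receptor gene Trpm8 (named after its values were seen), with saline replicate 1 low at 1.78 FPKM.

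**Figure D4:**
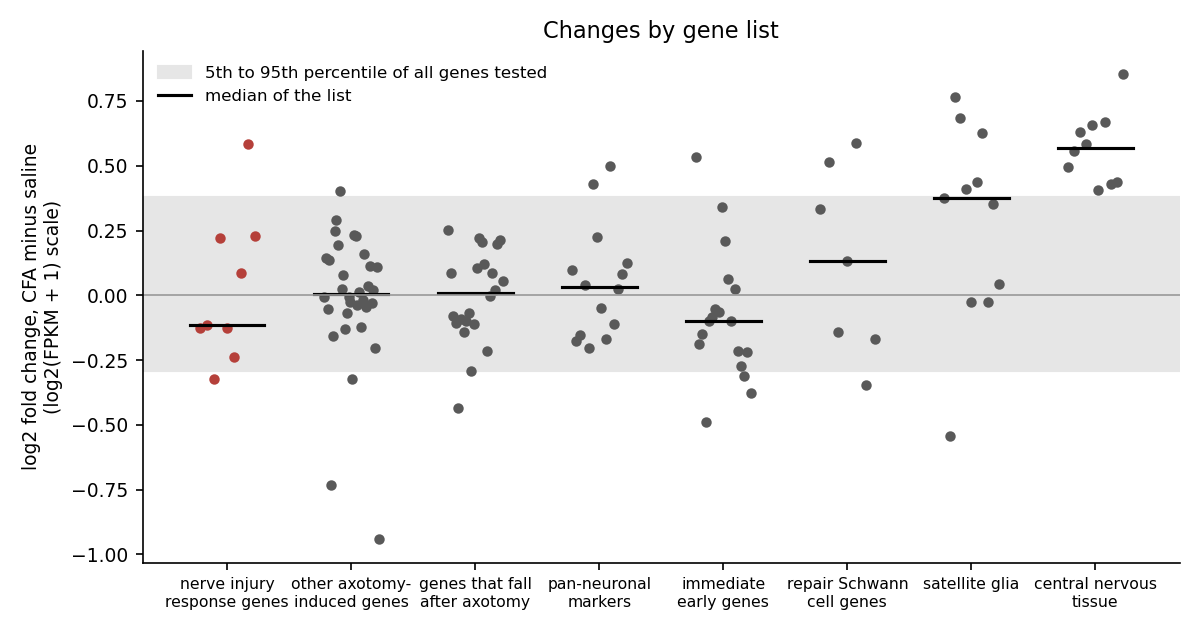
Log2 fold change (vertical axis, CFA minus saline, from log2(FPKM + 1)) of every tested gene in 8 lists (points; the nerve injury response genes in red), with the median of each list (black line) and the 5th to 95th percentile of all genes tested (grey band). Medians of the 2 axotomy lists beside the members sit at 0.00 and 0.01, those of satellite glia and central nervous tissue at 0.38 and 0.57.

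Cut axons also set Schwann cells to a repair state. Of 16 genes of that state 11 had a row and 7 were tested, 4 higher and 3 lower, none past the threshold by limma. An unadjusted limma p below 0.05 was seen in 2 of the 7 with CFA higher (Ccnd1 and Olig1) and in 1 lower (Shh). Of all genes tested, 5.37% were past it with CFA higher and 2.95% with CFA lower. The cell cycle gene Ccnd1 was at 11.2 ± 1.22 FPKM in CFA libraries and 7.53 ± 1.09 FPKM in saline libraries (SD, n = 3 each). The glial factor gene Olig1 was at 13.3 ± 0.510 FPKM in CFA libraries and 8.71 ± 2.37 FPKM in saline libraries, and is also a gene of oligodendrocytes, whose markers were higher in CFA libraries. Shh, a secreted signal that repair Schwann cells make, was at 6.98 ± 0.5996 FPKM in CFA libraries and 9.16 ± 1.08 FPKM in saline libraries.

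Atf3 and Klf6 are also immediate early genes, which respond rapidly to stimulation and to handling of tissue. Of 18 tested immediate early genes 13 were lower and 5 higher in CFA ganglia, with a median log2 fold change of −0.10, none past the threshold by limma. An unadjusted limma p below 0.05 was seen in 1 of the 18 with CFA higher (Arc) and in 2 lower (Dusp1 and Klf2). Of all genes tested, 5.37% were past it with CFA higher and 2.95% with CFA lower. Dusp1, a phosphatase gene, was at 8.30 ± 1.56 FPKM in CFA libraries and 11.9 ± 0.974 FPKM in saline libraries (SD, n = 3 each). Arc, an activity-regulated synaptic gene, was at 2.12 ± 0.178 FPKM in CFA libraries and 1.16 ± 0.251 FPKM in saline libraries. Glucocorticoid-responsive genes were lower in CFA libraries, as were Smad1 and Gadd45a: all 17 tested were lower, 12 without overlap (6.66% of all genes tested). The summed FPKM of the glucocorticoid-responsive genes ran from 443 to 497 in CFA libraries and from 695 to 728 in saline libraries. Their part in the levels of Smad1 and Gadd45a was not tested. Of the other lists, macrophage markers were higher in 13 of 15 cases, endothelial markers in 6 of 8, fibroblast markers in 5 of 9 and erythroid genes in 5 of 5. Higher without overlap were 9 macrophage, 0 endothelial and 3 fibroblast markers and 0 erythroid genes (7.89% of all genes tested). Lower without overlap were 0, 1, 1 and 0 of these lists in the same order (6.66% of all genes tested). Neutrophil, skeletal muscle and pituitary genes were lower in 10 of 10, 8 of 8 and 6 of 6, in each case with overlapping groups. Saline replicate 3 had the highest sum of all libraries in each of these lists (616, 207 and 4842 FPKM), so the counts are not of separate cases.

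The 3 genes whose standardized profile over the 6 libraries lay nearest to that of Atf3, out of all tested, were Aebp2, Tmem132c and Rnf219 (Euclidean distances 0.389, 0.467 and 0.469). These are descriptions over 6 libraries.

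RefSeq promoter windows (GRCm38.p6, 250 bases before to 50 after the gene start) were found for 7 of the 10 genes. The 7 include Ecel1, which had no row in the expression table. The window of Atf3 lies at 191183284 to 191183583, inside the span given above for this minus-strand gene. The upper end of that span (191218039) was not searched. None of the 7 holds the AP-1 motif TGANTCA, the kind of site that JUN and ATF3 dimers bind, on either strand, or the palindromic cAMP response element. Of all 32851 windows, 7.81% hold the AP-1 motif and 1.79% the response element. This says only that these letters are not in these windows.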

How the data were processed

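RNA of 6 trigeminal ganglion libraries was measured, 3 from CFA and 3 from saline mice. Per the labels' protocols, poly(A) RNA was selected and a stranded KAPA kit was used. FPKM values were deposited by the authors in 1 table, per the file headers, and the submitters' processing notes name build GRCm38. Aligner, quantifier and annotation release: not given in the sources used here, for any library. In every row the larger group mean was at least 0.501 FPKM, so genes below that have no row, and 1 line had been emptied for this work. A search of low values for whole-read steps found no clear step (greatest strength 0.342, where 1 would mean all values whole multiples), so depth is unknown and no counting interval is given. Transcripts and shared exons come from GENCODE M21, which matched 13662 identifiers, 12540 of them with identical coordinates.

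Genes that averaged 1 FPKM or more were tested on log2(FPKM + 1) with limma 3.58.1 in R 4.3.3 (eBayes with a trend, no covariate, two-sided), with Benjamini-Hochberg adjustment over all 12238 genes and a threshold of 0.05. All 9 members with a row passed this filter. With 3 libraries a side, exact permutation p-values cannot go below 0.1. The functions were tested on simulated data. The members and the 15 other gene lists were chosen with earlier results of these data known. Named are all members, up to 4 genes of a list with the smallest p, and the 3 genes nearest to Atf3, and others are said to be named after their values were seen. Alternatives were a pseudocount of 0.1, other filters, scalings and variance settings, the replicate number as a block, leaving out each library, and, chosen after seeing the data, leaving out both libraries numbered 3. Figures were drawn with matplotlib 3.10.9.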

Additional observations from a re-analysis of the deposited data

How the results depend on the processing

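No member was called under any of the 17 alternatives, and the 149 refitted changes of single members all kept their direction. The lowest adjusted p was 0.120, for Stmn4 without CFA replicate 2, and its log2 fold change ran from 0.50 (without both libraries numbered 3) to 0.68 over all settings. Atf3 ran from −0.19 to −0.06, Sox11 from 0.01 to 0.13, Smad1 from −0.28 to −0.22, Klf6 from −0.18 to −0.08, Gap43 from 0.13 to 0.27, Tubb6 from 0.18 to 0.28, Gadd45a from −0.45 to −0.17 and Flrt3 from −0.18 to −0.04. With libraries rescaled by pan-neuronal markers Stmn4 stood at 0.54. The count of genes called over the whole table was less steady: 7 as reported (4 higher), 11 (7 higher) with scaling by pan-neuronal markers, 13 with robust variances, 1 with a replicate block, and 5 to 19 when 1 library was left out (6, 13 and 14 without CFA replicates 1, 2 and 3; 19, 12 and 5 without saline replicates 1, 2 and 3). In the other lists 0 genes were called, against 1, Sgk1, both with a mean of at least 5 FPKM and with robust variances; leaving out 1 library kept that count at 0. Deviations from the group means correlated across genes at 0.0803, 0.111 and −0.0475 for replicate numbers 1, 2 and 3, and at −0.182 to 0.113 between unlike numbers. With 3 libraries a side these values cannot show whether the numbers pair the libraries. Summed pituitary genes had the same order by number in both groups (1052, 233 and 2849 FPKM in CFA, 2500, 189 and 4842 in saline). Summed neutrophil markers did not (62.1, 351 and 70.2 in CFA, 63.5, 89.5 and 616 in saline). Depth is unknown, so its limit on the low genes Sox11, Vip and Sprr1a cannot be stated.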
